A study of Mastomys natalensis with 3 samples.

Results

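The 6 genes described here are feedback regulators of inflammatory signalling and 2 related transcription factors: Nfkbia, Zfp36, Socs3, Cebpb, Cebpd and Dusp1. They were taken as every probe set that the platform annotation assigns to 1 of these symbols, which gave 13 probe sets of the 8799 on the array and 6 genes of 4736 with a singly named probe set. No further probe set listed a member together with another gene. The genes had been picked because Nfkbia, Cebpb and Zfp36 were highest after 8 weeks of loxtidine and Socs3 after 16 weeks, so the levels below describe the choice and are not tested. RNA came from the stomach of Mastomys natalensis, a rodent that develops gastric carcinoids, and was hybridised to Affymetrix arrays made for rat genes (RatU34). The carcinoid sample came from Mastomys in which an ECL cell tumour had arisen spontaneously. The 16-week and 8-week samples came from Mastomys given loxtidine, a blocker of the histamine H2 receptor, for 16 weeks or 8 weeks. All 3 samples were described as enriched for ECL cells, endocrine cells of the stomach that store histamine. The source was given as gastric mucosa for the carcinoid and 16-week samples and as gastric ECL cells for the 8-week sample. Any difference from the 8-week array is thus also a difference in the source given, and the parts cannot be told apart. There was 1 array per group and no untreated sample, so no difference has a replicate error, a p-value or a baseline. The labels give no genotype, age, sex, dose or number of animals.

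NF-kappaB, JAK-STAT and MAP kinase signalling are each switched on by cytokines or stress and each induce their own brakes. Nfkbia encodes the inhibitor that holds NF-kappaB in the cytoplasm, Zfp36 encodes tristetraprolin, which speeds the decay of cytokine mRNAs with AU-rich elements, Socs3 blocks signalling from receptors of the IL-6 family, and Dusp1 encodes a phosphatase that inactivates p38 and JNK. Cebpb and Cebpd encode leucine zipper transcription factors that respond to IL-1 and IL-6 and drive acute phase genes. Most of these transcripts are short-lived and are induced quickly by many stimuli, including glucocorticoids and handling of tissue.

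Values are intensities after quantile normalization, which gives the 3 arrays the same distribution, unless they are called deposited. A value under the floor of 12.4, the pooled median of all non-control values, was raised to it before log2. A difference is then a fold where both arrays reached the floor and a bound ("at least") where 1 did. The floor is not a detection call, and a rat probe set can be dim because the Mastomys sequence differs, so each probe set is compared only with itself. The only measurable error was the spread between probe sets of a gene, 0.79 on the log2 scale for 16 against 8 weeks, 0.82 for carcinoid against 8 weeks and 0.62 for carcinoid against 16 weeks (410, 395 and 457 genes). It covers genes with more than 1 probe set at or above the floor on both arrays. Disagreement with a probe set under the floor, as for Nfkbia and Cebpb, is not in it. The 8-week array had the lowest median deposited intensity, 10.2, against 13.9 for carcinoid and 13.1 for 16 weeks. It also had the largest ratio of the 3' to the 5' GAPDH control, 8.95, against 2.31 for carcinoid and 1.43 for 16 weeks, and the part of RNA quality in the differences from that array was not tested. Each array carried its own lot label, and a lot effect cannot be told apart from a group difference. Hdc, the enzyme that makes histamine in ECL cells, was under the floor on every array, at 3.2 for carcinoid, 4.77 for 16 weeks and 4.43 for 8 weeks. Other ECL cell genes were measured: the vesicular monoamine transporter Slc18a2 read 23.2, 42.3 and 21.8 and the gastrin receptor Cckbr 35.2, 56.5 and 74.3 on those arrays.

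Of the 13 probe sets, 6 reached the floor on all 3 arrays, 2 on some and 5 on none. By array, 7 reached it for carcinoid, 6 for 16 weeks and 8 for 8 weeks. Values under the floor are printed for completeness, and no order is read from them.

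**Figure D1:**
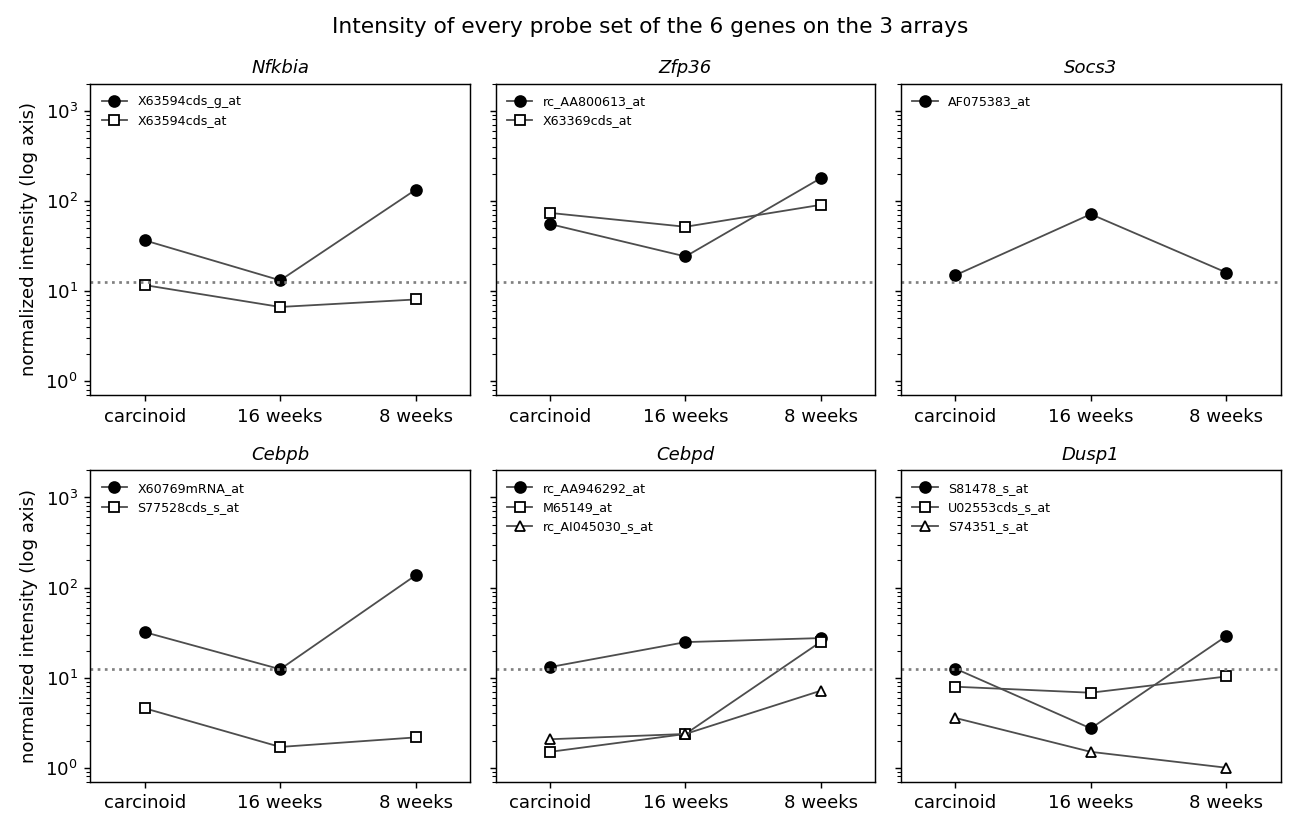
Normalized intensity (log axis) of the 13 probe sets on the carcinoid, 16-week and 8-week arrays, with filled symbols for the brightest probe set of each gene and a dotted line at the floor of 12.4. Nfkbia, Zfp36 and Cebpb are lowest at 16 weeks and highest at 8 weeks on their brightest probe set, and Socs3 is highest at 16 weeks.

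Nfkbia, the NF-kappaB inhibitor, read 36.4 in the carcinoid, 13.1 at 16 weeks and 133 at 8 weeks with its brightest probe set (deposited 41.6, 13.9 and 92.2). The 16-week value was near the floor and the 8-week value was the highest. Nfkbia was 3.65-fold lower in the carcinoid than at 8 weeks, 10.2-fold lower at 16 than at 8 weeks, and 2.78-fold higher in the carcinoid than at 16 weeks. In rank, this probe set stood at percentile 80.0 in the carcinoid, 51.5 at 16 weeks and 96.1 at 8 weeks. The name of this brightest probe set carries the suffix letter g. The second Nfkbia probe set, named for the same source sequence without a suffix letter, stayed under the floor at 11.6, 6.63 and 8.03. It gave no fold in any comparison.

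Zfp36, the mRNA decay factor, read 55.2 in the carcinoid, 24.1 at 16 weeks and 179 at 8 weeks on an EST probe set (deposited 64.8, 25.6 and 123.6). This put it 3.24-fold lower in the carcinoid than at 8 weeks, 7.42-fold lower at 16 than at 8 weeks, and 2.29-fold higher in the carcinoid than at 16 weeks. A second Zfp36 probe set, made from coding sequence, read 73.4, 51.5 and 90.3. It kept the same order of arrays with much smaller differences, 1.23-fold lower, 1.75-fold lower and 1.43-fold higher in those comparisons. As deposited, this second probe set was 1.32-fold higher in the carcinoid than at 8 weeks. Zfp36 is the only one of the 6 genes with more than 1 probe set above the floor on all arrays.

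Socs3, the inhibitor of IL-6 type receptors, had 1 probe set. It read 14.9 in the carcinoid, 71.1 at 16 weeks and 16.0 at 8 weeks (deposited 16.8, 76.1 and 13.2). The 16-week array stood alone, and the other arrays lay just above the floor. Socs3 was 4.77-fold lower in the carcinoid than at 16 weeks and 4.44-fold higher at 16 than at 8 weeks. Socs3 was 1.07-fold lower in the carcinoid than at 8 weeks (1.27-fold higher as deposited), inside the spread between probe sets of a gene. In rank the probe set stood at percentile 54.9, 91.7 and 56.8 on the carcinoid, 16-week and 8-week arrays.

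Cebpb, the C/EBP factor of the acute phase response, read 32.0 in the carcinoid, 12.4 at 16 weeks and 137 at 8 weeks (deposited 36.1, 13.2 and 94.1). Its 16-week value lay at the floor, so the folds against that array are close to bounds. Cebpb was 4.29-fold lower in the carcinoid than at 8 weeks, 11.0-fold lower at 16 than at 8 weeks and 2.57-fold higher in the carcinoid than at 16 weeks. Its other probe set, whose name marks probes that similar transcripts may share, read only 4.57, 1.7 and 2.17 and gave no fold. Cebpd, its close relative, read 13.1 in the carcinoid, 24.8 at 16 weeks and 27.5 at 8 weeks on its brightest probe set. The carcinoid array was lowest, 2.1-fold under 8 weeks and 1.89-fold under 16 weeks, and Cebpd was 1.11-fold lower at 16 than at 8 weeks. As deposited, that probe set read 14.6, 26.4 and 22.4, 1.18-fold higher at 16 than at 8 weeks. A second Cebpd probe set read 1.5, 2.37 and 25.1, at least 2.03-fold lower both in the carcinoid and at 16 weeks than at 8 weeks. The last Cebpd probe set stayed under the floor at 2.07, 2.37 and 7.17. The order of carcinoid and 16 weeks was thus measured by 1 Cebpd probe set.

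Dusp1, the p38 and JNK phosphatase, read 12.6 in the carcinoid, 2.73 at 16 weeks and 28.9 at 8 weeks on its brightest probe set. It was 2.29-fold lower in the carcinoid than at 8 weeks and at least 2.33-fold lower at 16 than at 8 weeks. The carcinoid reading was at the floor and the 16-week reading under it, so that comparison gave only a bound of 1.02-fold. The remaining Dusp1 probe sets read 7.93, 6.8 and 10.3, and 3.57, 1.5 and 1.0, under the floor throughout. They gave no fold in any comparison. All 3 Dusp1 probe sets carry the suffix for probes that similar transcripts may share.

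Counted by gene with the brightest probe set, 5 of the 6 were at least 2-fold lower in the carcinoid than at 8 weeks and 0 were higher. Over 3370 genes measured in that comparison, 13.7% were at least 2-fold lower and 14.6% higher. At 16 against 8 weeks, 4 genes were at least 2-fold lower, Nfkbia, Zfp36, Cebpb and Dusp1, and 1 was higher, Socs3, with 12.9% and 14.0% over 3345 genes. For carcinoid against 16 weeks, 1 gene was at least 2-fold lower, Socs3, and 3 were higher, Nfkbia, Zfp36 and Cebpb, with 9.29% and 9.41% over 3295 genes. Median log2 differences of the 6 genes were -1.45, -2.06 and 0.61 in these comparisons, against -0.02, 0.01 and 0.01 over all genes measured. Because the genes were picked on these arrays, nothing is read from the excess over the background. The comparisons also share arrays, so they are not independent of each other. Scaling to the bacterial hybridisation controls left 0 genes at least 2-fold lower in the carcinoid than at 8 weeks, where the median of all genes itself moved to 0.91. Relative to that shift 4 of the 6 stayed at least 2-fold lower, with Nfkbia at -1.49, Zfp36 at -1.27, Cebpb at -1.72 and Dusp1 at -1.06.

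By probe set, 6 of 8 measured were at least 2-fold lower in the carcinoid than at 8 weeks and 0 higher, against 14.0% and 14.6% of all probe sets. At 16 against 8 weeks 5 of 8 were lower and 1 higher, against 13.0% and 13.9%. For carcinoid against 16 weeks 1 of 7 was lower and 3 higher, against 9.67% and 9.38%. Among 5586 probe sets measured for 16 against 8 weeks, 3 had a lower difference than Cebpb, 6 a lower one than Nfkbia and 14 a lower one than Zfp36 on the brightest probe set. Socs3 was exceeded by 66 probe sets in that comparison. Between carcinoid and 16 weeks, 8 of 5439 probe sets lay lower than Socs3. Against 8 weeks, the carcinoid differences of Cebpb, Nfkbia and Zfp36 were less extreme, with 69, 118 and 183 of 5620 probe sets lower. Cebpd and Dusp1 lay well inside the distribution, with 12.3% and 9.72% of probe sets lower between carcinoid and 8 weeks.

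**Figure D2:**
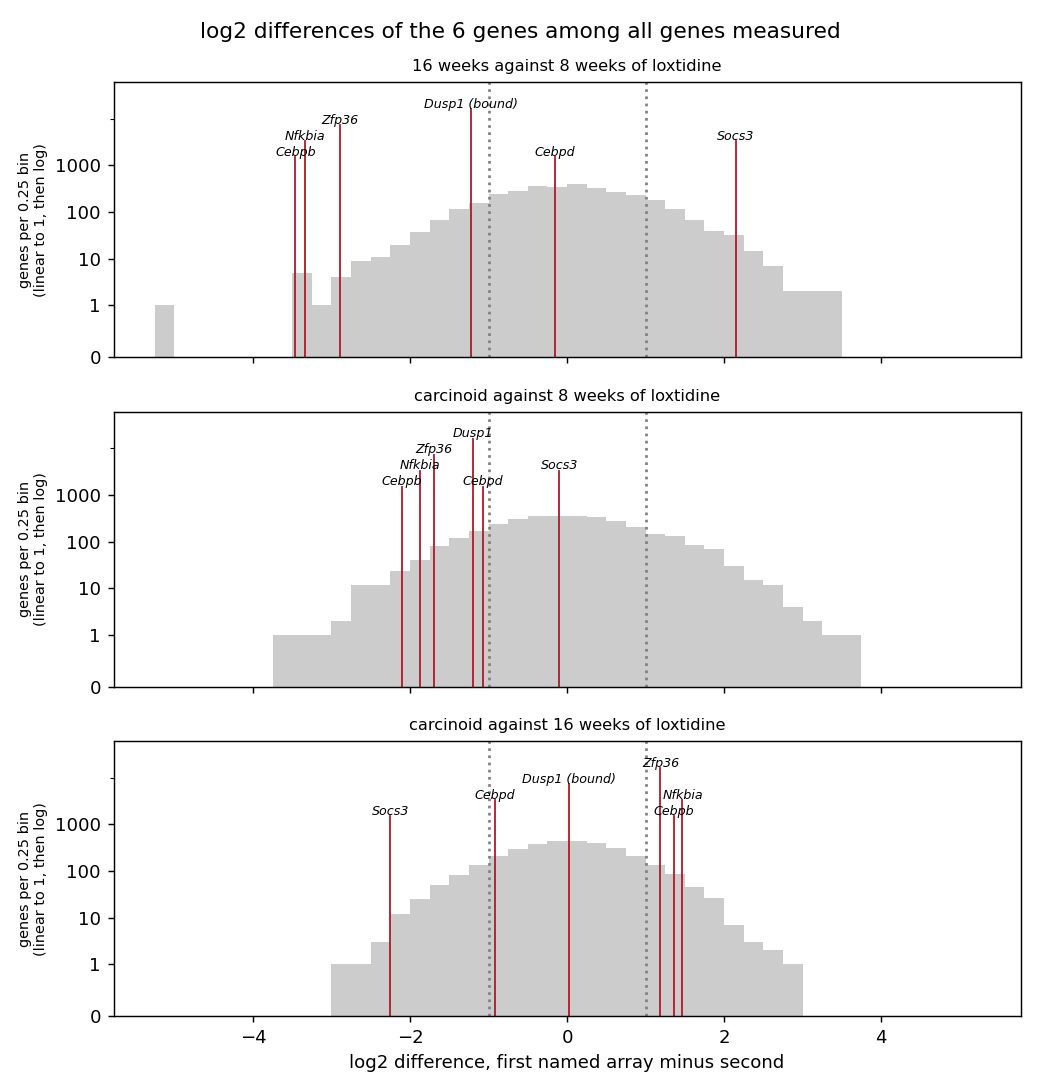
Histograms (grey, counts per bin, axis linear to 1 and then logarithmic) of log2 differences over all genes measured in each comparison, with red lines at the 6 genes and dotted lines at 2-fold. Cebpb, Nfkbia and Zfp36 lie at the lower edge for 16 against 8 weeks (-3.46, -3.34 and -2.89), and Socs3 lies near the lower edge for carcinoid against 16 weeks (-2.25).

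The patterns of Nfkbia, Cebpb and Zfp36 were close to each other. These 3 genes had been picked as highest at 8 weeks, and Socs3 as highest at 16 weeks. Nearness among the 3 and distance from Socs3 thus follow in part from that choice, and nothing is read from them. Likeness was measured as the Euclidean distance between mean-centred log2 values over the 3 arrays, among 1747 genes that reached the floor on all of them. For Cebpb the nearest gene was Nfkbia (distance 0.16), and Zfp36 came 3rd (0.41). For Nfkbia, Cebpb came 2nd and Zfp36 3rd (0.32). The clathrin adaptor subunit Ap2m1 lay among the nearest genes of all 3, at 42.3 in the carcinoid, 15.2 at 16 weeks and 146 at 8 weeks. The lipid carrier Apoe, at 60.5, 18.3 and 147, was also within the nearest 5 of each. Jun, an immediate early transcription factor, came 4th for Cebpb at 69.2, 40.0 and 424. An olfactory receptor probe set, Or10al7, was 5th for Nfkbia and 1st for Zfp36. Socs3 lay at the far end, at place 1721 from Nfkbia, and its own nearest genes were Azin1, Gas5, Pdia2, Myl1 and Rps9, with distances of 0.43 to 0.7. Cebpd was nearest to Gja5, Gnl3, Chgb, Ntf4 and Igll1, at distances of 0.04 to 0.09. Distances over 3 arrays are descriptions, and many flat profiles lie close together by construction.

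Relatives of the members were looked at on the same arrays, and those named next were picked by family after their values were seen. The SOCS relative Socs7 reached the floor on all 3 arrays, at 78.8 in the carcinoid, 76.5 at 16 weeks and 41.5 at 8 weeks, without the 16-week peak of Socs3. Cish read 4.1, 18.4 and 9.17 and reached the floor only at 16 weeks. Socs2 reached the floor only in the carcinoid, at 16.5, with 10.4 at 16 weeks and 11.6 at 8 weeks. Zfp36l1, another AU-rich element binding protein, read 282 in the carcinoid, 156 at 16 weeks and 327 at 8 weeks, 2.1-fold lower at 16 than at 8 weeks. Its second probe set read 64.4, 143 and 113 and ran the other way. Of the MAP kinase phosphatases, Dusp5 read 58.1, 31.8 and 48.6 and Dusp6 3.57, 27.1 and 18.1. Dusp6 was thus lowest in the carcinoid, whereas Dusp5 was highest there. Cebpa stayed under the floor on every array at 5.4, 4.67 and 10.3. The C/EBP dimer partner Ddit3 read 3.03, 12.9 and 6.7 and passed it only at 16 weeks.

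Genes of the pathways around the members were counted from lists that leave the members out. For reading the counts, 13.7% of all genes measured were at least 2-fold lower and 14.6% higher for carcinoid against 8 weeks, with 12.9% and 14.0% for 16 against 8 weeks. The carcinoid compared with 16 weeks gave 9.29% lower and 9.41% higher. Of NF-kappaB target cytokines, chemokines and enzymes, 6 of 18 measured were at least 2-fold lower in the carcinoid than at 8 weeks and 2 higher. At 16 against 8 weeks 6 of 17 were lower and 1 higher, and for carcinoid against 16 weeks 2 of 16 were lower and 3 higher. As deposited the counts were 4 lower and 3 higher, 4 and 2, and 2 and 3 in these comparisons. The list's median was -0.60, -0.54 and -0.07 in these comparisons, against all-gene medians between -0.02 and 0.01. With scaling to the bacterial controls the medians were 0.38, 0.05 and 0.34, against all-gene shifts of 0.91, 0.51 and 0.46. The colony-stimulating factor Csf1 read 16.3 in the carcinoid, 39.0 at 16 weeks and 62.6 at 8 weeks, 3.84-fold lower in the carcinoid than at 8 weeks. The adhesion receptor Selp read 24.9, 11.8 and 60.1, 2.42-fold lower in the carcinoid than at 8 weeks. The chemokine Ccl20 was 2.66-fold lower at 16 than at 8 weeks (14.2 against 37.9) and the superoxide dismutase Sod2 2.23-fold lower (16.0 against 35.7). The neutrophil chemokine Cxcl6 went the other way, 2.51-fold higher at 16 weeks (63.2 against 25.1). The protease Plau was highest in the carcinoid at 34.4, against 15.9 at 16 weeks, 2.16-fold higher. Genes outside the naming rule, picked after their values were seen, included Cxcl2 (5.67, 2.37 and 58.1), Ptgs2 (4.93, 4.1 and 37.8) and Icam1 (6.8, 9.07 and 37.8), which reached the floor only at 8 weeks. The cytokines Il6 (21.0, 10.5 and 2.93) and Il1b (20.4, 1.9 and 4.93) reached it only in the carcinoid, and Tnf on no array.

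Upstream NF-kappaB genes were thinly covered, with 7 of 29 on the array and 4 measured in each comparison. Of these, 0 were 2-fold apart in the carcinoid against 8 weeks or against 16 weeks, and 1 was lower at 16 than at 8 weeks. That gene was the IL-1 receptor Il1r1, at least 2.1-fold lower (2.57 against 26.1), although another of its probe sets was 1.26-fold lower only.

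For genes of the IL-6 family and of JAK-STAT signalling, of 18 measured at 16 against 8 weeks, 1 was at least 2-fold lower and 0 were higher, with a median of 0.10. In the carcinoid 2 of 19 were lower and 2 higher than at 8 weeks (median -0.25), and 3 of 20 were lower and 1 higher than at 16 weeks (median 0.20). As deposited 1 was lower and 5 higher of 19 for carcinoid against 8 weeks. The deposited medians were 0.23 for carcinoid against 8 weeks, 0.27 for 16 against 8 weeks and 0.18 for carcinoid against 16 weeks. Stat5b, a signal transducer of cytokine and growth hormone receptors, read 24.4 in the carcinoid, 72.6 at 16 weeks and 37.5 at 8 weeks, 2.98-fold lower in the carcinoid than at 16 weeks. The growth hormone receptor Ghr read 110, 337 and 545, and its other probe sets stayed at 4.1 or less. The IL-6 family cytokine Lif was at least 2.17-fold lower in the carcinoid than at 8 weeks (7.53 against 26.9).

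Acute phase genes are a known set of C/EBP and STAT3 targets. In the carcinoid against 8 weeks 3 of 14 were at least 2-fold lower and 1 higher (median -0.32). At 16 against 8 weeks 2 of 18 were lower and 4 higher (median -0.07), and for carcinoid against 16 weeks 2 of 16 were lower and 2 higher (median -0.63). These shares lay on both sides of those over all genes, and nothing particular to the list is read from them. As deposited these medians were 0.11, 0.42 and -0.57. The protease inhibitor Timp1 read 40.2 in the carcinoid, 40.7 at 16 weeks and 18.7 at 8 weeks, 2.15-fold and 2.17-fold above 8 weeks. Haptoglobin, Hp, read 30.4, 5.17 and 51.0 and was at least 4.11-fold lower at 16 than at 8 weeks. The secreted lectin Reg3b read 11.8, 44.8 and 1.4 and was at least 3.61-fold lower in the carcinoid than at 16 weeks. Orm1 was 2.07-fold higher at 16 than at 8 weeks (32.8 against 15.8). Of the other bZIP factors, 1 of 6 was at least 2-fold lower and 2 higher in the carcinoid than at 8 weeks (median 0.50), 0 of 7 lower and 1 higher at 16 against 8 weeks (median 0.40), and 0 of 8 lower and 1 higher for carcinoid against 16 weeks (median -0.23, or 0.03 with bacterial scaling). Dbp, a clock-controlled bZIP factor, read 47.3 in the carcinoid and stayed under the floor at 16 weeks (2.63) and 8 weeks (3.55). Atf3, a stress-induced bZIP factor, read 13.1, 17.9 and 32.0, 2.44-fold lower in the carcinoid than at 8 weeks.

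MAP kinase genes, the substrates and relatives of Dusp1, were counted likewise. In the carcinoid 4 of 17 were at least 2-fold lower and 4 higher than at 8 weeks (median 0.02), or 2 and 5 as deposited, and at 16 weeks 2 of 15 were lower and 2 higher (median -0.27, or 0.17 with 1 lower and 2 higher as deposited). For carcinoid against 16 weeks 3 of 16 were lower and 2 higher (median 0.04). Mapk14, the p38 kinase, read 37.3 in the carcinoid, 84.7 at 16 weeks and 115 at 8 weeks on its brightest probe set, 3.08-fold lower in the carcinoid than at 8 weeks, while another probe set was at least 2.47-fold higher. Mapkapk2, the kinase through which p38 acts on tristetraprolin, read 80.8, 16.6 and 72.3. It was 4.36-fold lower at 16 than at 8 weeks and 4.87-fold higher in the carcinoid than at 16 weeks. Its lowest reading was at 16 weeks and, unlike Zfp36, its highest was in the carcinoid. The related kinase Mapkapk3 went the other way on its brightest probe set, at 38.7, 40.4 and 3.77. It was at least 3.25-fold higher at 16 than at 8 weeks. Of 5 measured genes for AU-rich mRNA decay and stability, Zfp36l1 alone was 2-fold apart, in 16 against 8 weeks. Their medians were 0.09 for carcinoid against 8 weeks, 0.02 for 16 against 8 weeks and 0.19 for carcinoid against 16 weeks.

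Genes listed as glucocorticoid-induced, members left out, were at least 2-fold lower in 3 of 9 for carcinoid against 8 weeks. At 16 against 8 weeks 3 of 8 were lower, with 0 higher in both comparisons. As deposited 2 of 9 were lower and 2 higher in the carcinoid, and 2 of 8 lower and 0 higher at 16 weeks. The medians were -0.18 and -0.33, or 0.29 and 0.11 as deposited. For carcinoid against 16 weeks 1 of 8 was lower and 1 higher (median 0.04). The cell cycle inhibitor Cdkn1a read 8.4 in the carcinoid, 16.3 at 16 weeks and 48.0 at 8 weeks, at least 3.87-fold lower in the carcinoid and 2.94-fold lower at 16 weeks than at 8 weeks. Immediate early genes, which are induced within minutes, were at least 2-fold lower in 5 of 20 for carcinoid against 8 weeks and in 5 of 20 for 16 against 8 weeks, with 0 higher in both. As deposited 3 of 20 were lower and 2 higher in the carcinoid, and 4 of 19 lower and 3 higher at 16 weeks. Their medians were -0.28 (0.29 as deposited) and -0.82 (-0.37 as deposited). For carcinoid against 16 weeks 0 of 17 were lower and 3 higher (median 0.39). Egr1, a zinc finger factor, read 265 in the carcinoid, 96.4 at 16 weeks and 3126 at 8 weeks on its brightest probe set, 11.8-fold lower in the carcinoid and 32.4-fold lower at 16 weeks than at 8 weeks. Other Egr1 probe sets read 27.8, 24.7 and 209, and 35.2, 20.9 and 41.7, while one ran the other way at 37.9, 19.4 and 3.77. Jun was 6.12-fold lower in the carcinoid and 10.6-fold lower at 16 weeks than at 8 weeks, and another of its probe sets read 13.3, 14.1 and 516. A further Jun probe set differed much less, at 16.5, 8.3 and 20.7. Its carcinoid value lay 1.25-fold under that of 8 weeks, and its 16-week value gave a bound of 1.67-fold. The remaining Jun probe set stayed under the floor at 1.63, 2.93 and 3.9 and gave no fold. Nr4a1, an orphan nuclear receptor, read 83.7, 28.9 and 103, 2.89-fold higher in the carcinoid than at 16 weeks and lowest at 16 weeks like Nfkbia, Zfp36 and Cebpb.

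**Figure D3:**
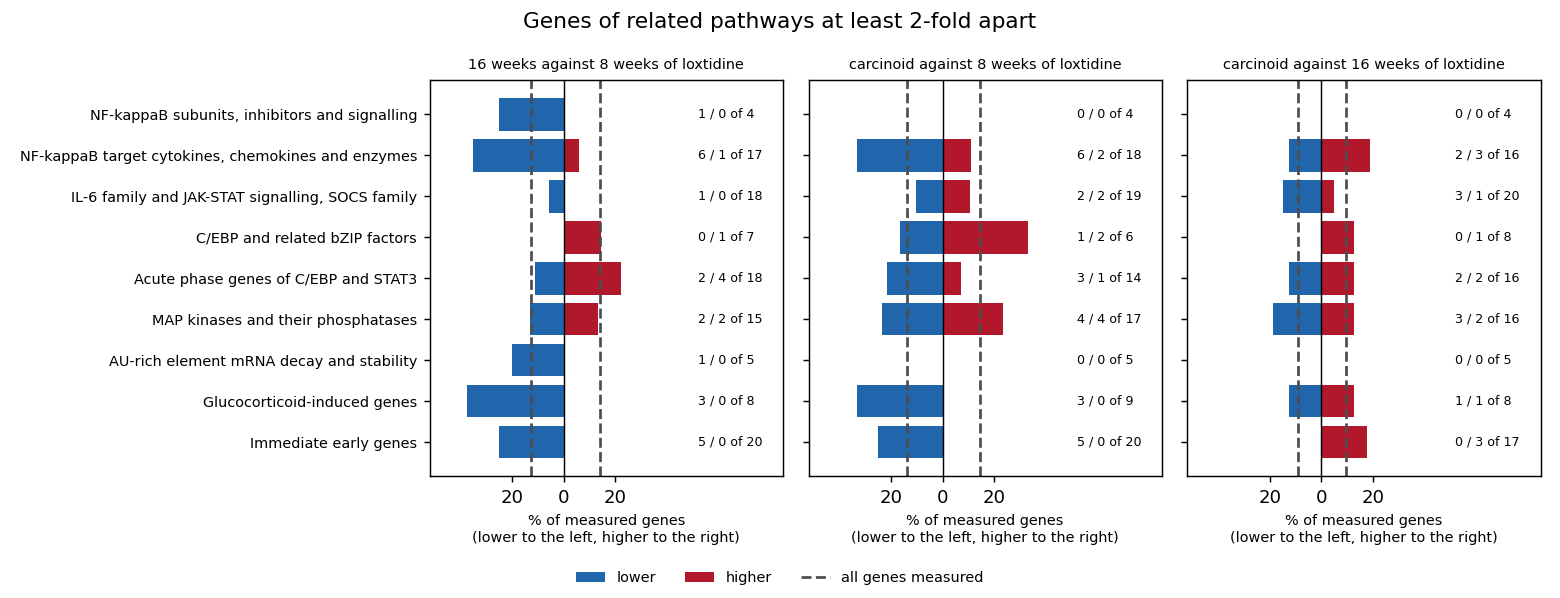
Percent of measured genes of each of the 9 pathway lists, members left out, at least 2-fold lower (blue, left) or higher (red, right) in each comparison, with dashed lines at the share over all genes and the counts lower / higher of measured at the right of each panel. The NF-kappaB target, glucocorticoid and immediate early lists extend furthest left among these 9 for carcinoid against 8 weeks, with 6 of 18, 3 of 9 and 5 of 20 genes lower.

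After normalization, summed markers of leukocytes, endothelium and fibroblasts were highest on the 8-week array. So were those of parietal cells, mast cells, smooth muscle and erythroid cells. The smooth muscle order rested on its largest gene, Tpm1. Without it the sums were 111 in the carcinoid, 105 at 16 weeks and 74.7 at 8 weeks, lowest at 8 weeks. The erythroid list without Hbb-b1 summed to 194, 167 and 195, nearly equal in the carcinoid and at 8 weeks. These sums use normalized values only, and the 8-week array had the lowest median deposited intensity, so the order can differ as deposited. The leukocyte list, with 17 of 24 genes on the array, summed to 251 in the carcinoid, 331 at 16 weeks and 513 at 8 weeks. Of its measured genes, 5 of 14 were at least 2-fold lower and 0 higher in the carcinoid than at 8 weeks, and 5 of 16 lower and 1 higher at 16 than at 8 weeks. As deposited 2 were lower and 1 higher in each of these comparisons. The MHC class II invariant chain Cd74 read 1.4, 1.27 and 35.3, and the pan-leukocyte marker Ptprc 6.6, 13.0 and 16.0. Other genes of the list did not follow Cd74, among them the MHC class II genes RT1-Bb (30.9, 51.9 and 36.3) and RT1-Db1 (35.1, 25.9 and 22.0) and the T cell gene Cd8a (6.7, 41.2 and 9.27). The endothelial list (10 of 14 genes) summed to 110, 169 and 258, and the fibroblast and matrix list (12 of 12) to 544, 641 and 1532. Dcn, which encodes the matrix proteoglycan decorin, was the largest single gene of the last list, at 262, 317 and 1090. Only at 8 weeks was it most of the sum, and without it the sums were 282, 325 and 442. Of the 14 endothelial genes 4 also stand on another list, as do 5 of the 29 NF-kappaB targets. The ECL and neuroendocrine list (18 of 20) summed to 396, 612 and 555, with 5 of 12 genes at least 2-fold lower and 0 higher in the carcinoid than at 8 weeks, or 2 lower and 1 higher as deposited. Mast cell genes (8 of 9) summed to 181, 181 and 258 and erythroid genes (5 of 7) to 266, 260 and 304. Parietal cell genes (9 of 12) summed to 2047, 2659 and 3057, chief cell genes (4 of 5) to 8157, 10553 and 8421, mucous cell genes (6 of 8) to 1655, 1223 and 1375 and smooth muscle genes (8 of 10) to 345, 283 and 368. Nfkbia, Zfp36, Cebpb, Socs3, Cebpd and Dusp1 are expressed by many cell types, and the part of cell mixture in their differences was not tested. In such bulk samples, fewer cells of a type and less RNA per cell cannot be told apart.

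Processing settings changed the sizes more than the directions of the 3 genes that peaked at 8 weeks. For Nfkbia and Cebpb this is not an independent check of direction. Their other probe set was under the floor on every array, so their direction came from the brightest probe set alone. Of the 3 genes, only Zfp36 had a second probe set above the floor, and that probe set gave -0.81 at 16 against 8 weeks. Over the settings tried, the log2 difference ran from -3.34 to -1.67 for Nfkbia, from -3.46 to -1.73 for Cebpb and from -2.89 to -0.81 for Zfp36 at 16 against 8 weeks. Socs3 ran from 1.24 to 2.57 there and from -2.31 to -1.24 for carcinoid against 16 weeks. Cebpd at 16 against 8 weeks ran from -1.02 to 0.40 and had no settled direction. Dusp1 at 16 against 8 weeks ran from -2.78 to 0.00, the last with the median of its probe sets.

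**Figure D4:**
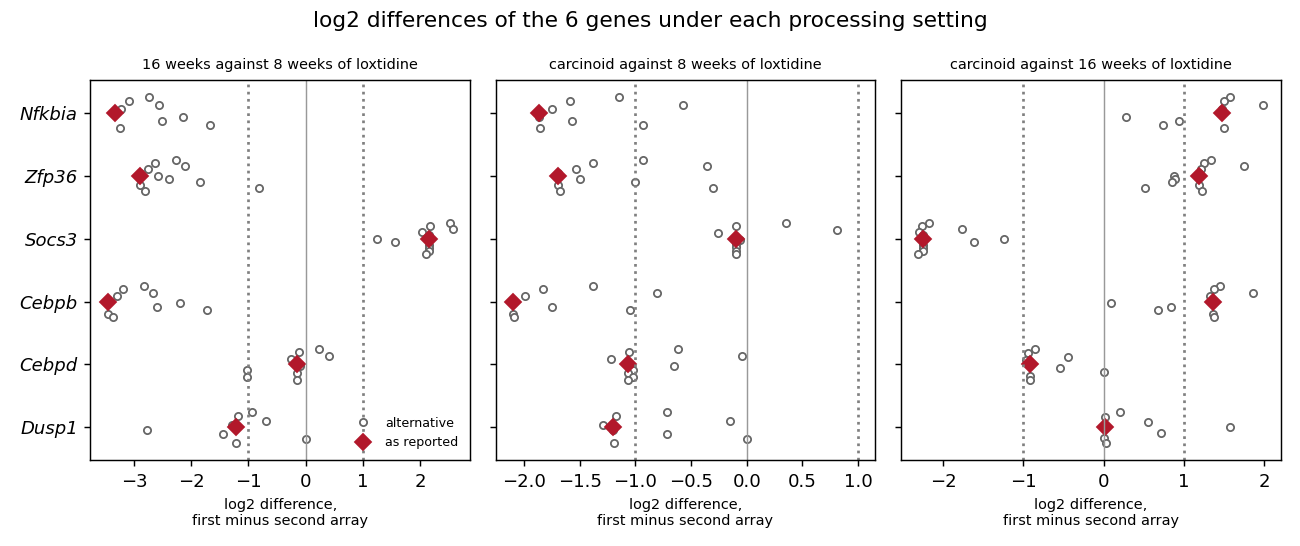
log2 differences of the 6 genes in the 3 comparisons as reported (red diamonds) and under each alternative setting that gave a value (open circles), with dotted lines at 2-fold. Nfkbia, Zfp36 and Cebpb lie below 0 against 8 weeks under each setting drawn, and Socs3 lies above 0 for 16 against 8 weeks (1.24 to 2.57).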

How the data were processed

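RNA of 3 samples was measured on 1 array each. The authors deposited linear intensities, 1 value for each probe set of an array. How they were summarised, background-corrected and scaled is not stated in the labels or the file header. An intensity gives no depth, so the number of arrays limits the precision. Quantile normalization was applied to all 8799 probe sets (59 controls) because the 2% trimmed means differed, at 27.2, 25.1 and 17.9 for carcinoid, 16 and 8 weeks. Quantile normalization hides a shift shared by most transcripts. Gene names came from the platform annotation: of 8740 non-control probe sets 7006 had 1 symbol, 308 several and 1426 none. A gene took its probe set of highest mean deposited intensity. With 1 array per group no test was run. Counts and medians cover genes that reached the floor on at least 1 array of the pair. The members, lists and settings were chosen with earlier results of these data known. Named list genes were the 2 furthest apart each way per list and comparison among genes at least 2-fold apart, measured folds before bounds, and not all are printed. Likeness named the nearest 5 genes. The 9 pathway and 10 cell type lists leave the members out. The steps were run on simulated data with changes planted in bright probe sets only. The noise was smaller than the spread between probe sets, and recovery of changes in dim probe sets was not checked. Python 3.11.15, numpy 2.4.6 and pandas 2.3.3 were used.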

Additional observations from a re-analysis of the deposited data

How the results depend on the processing

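The count of the 6 genes at least 2-fold lower in the carcinoid than at 8 weeks was 5. It was 2 in the intensities as deposited, 0 with scaling to the bacterial controls, 3 of 3 measured with the floor at the 75th percentile (30.0), 3 with log2 of the value plus the floor, 2 with the median of all probe sets, 3 of 4 with plain probe sets without a suffix letter, and 1 of 3 with the second brightest probe set. The count lower at 16 than at 8 weeks was 4. It became 2 of 4 with plain probe sets and 1 of 3 with the second brightest. The count higher in the carcinoid than at 16 weeks was 3. It became 0 with the floor at the 75th percentile, with log2 of the value plus the floor, with the median of all probe sets and with the second brightest probe set. With the higher floor fewer genes are measured and the 16-week values become bounds, and for the other settings the cause was not tested. The other counts stayed within 1.5 times of those reported under the settings run, and no difference of at least 2-fold changed sign. For Nfkbia and Cebpb the sign came from the brightest probe set alone, because their other probe set was under the floor on every array. Quantile normalization of only the compared arrays, added after seeing the data, left every count as it was. Of 567 list counts and medians recomputed, 419 stayed close and 148 moved. No paired analysis was possible because each group has 1 array. Intensities near the floor limit Nfkbia and Cebpb at 16 weeks, and Dusp1 and Cebpd in the carcinoid.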
